A study of Mus musculus with 54 samples.

Results

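The genes described here were 8 secreted or membrane-anchored metalloproteases, Adamts1, Adamts2, Adamts4, Adamts5, Adamts12, Adamts14, Adamts15 and Adam12, taken by symbol from 4 deposited tables of TPM, a length-corrected transcript share. They were 8 of 43615 gene symbols in those tables. Each of the 8 was listed once per table and passed the filter on low values (at least 3 libraries with 1 TPM or more) in all 4. The study held 54 poly(A) RNA libraries of wild-type mouse samples in 17 groups and asked how the supply of branched-chain amino acids (BCAA) and of the branched-chain keto acids (BCKA) made from them bears on lung fibrosis. Primary lung fibroblasts were taken from mice of 6 to 8 weeks and kept for 24 h in complete medium, in BCAA-free medium, or in BCAA-free medium to which BCAA or BCKA had been added. They then received PBS or transforming growth factor beta 1 (TGF-β1) at 20 ng/mL for 48 h, which gave 8 groups of 3 libraries.

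The 30 lung libraries came from male C57BL/6 mice of 10 to 12 weeks in 3 experiments, each with a PBS group, a group given intratracheal bleomycin, a drug that injures and scars the lung, and a group given bleomycin with an intervention. Mice of the water experiment (3 in each group) received bleomycin at 1.25 mg/kg, the intervention was 3 mM BCAA in drinking water from 7 days before bleomycin, the other 2 groups drank normal water, and day 14 was the day of lung collection. The diet experiment (4 in each group) used the same bleomycin dose. There the intervention was a BCAA-free diet that began on day 7 and lasted 14 days, the other groups ate a normal diet, and lungs were taken on day 21. The BT2 experiment (3 in each group) used bleomycin at 3.5 mg/kg. Daily intraperitoneal injections of 10% DMSO or of BT2 at 20 mg/kg began on day 3 and lasted 11 days, and lungs were taken on day 14. BT2 blocks the kinase that inactivates branched-chain keto acid dehydrogenase and so speeds BCKA breakdown. The PBS group of that experiment carried DMSO in its title and PBS alone in its treatment label.

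ADAMTS proteases are secreted zinc enzymes whose thrombospondin repeats hold them in the extracellular matrix. Adamts1, Adamts4, Adamts5 and Adamts15 belong to the proteoglycanases, which cleave versican and aggrecan, while Adamts2 and Adamts14, with Adamts3, are procollagen N-proteinases that remove the amino-terminal propeptide before collagen is laid into fibrils. Adamts12 cleaves cartilage oligomeric matrix protein, and Adam12 is an ADAM protease, anchored in the membrane or secreted, that cleaves insulin-like growth factor binding proteins and is known from activated mesenchymal cells. Timp3 is the main tissue inhibitor of ADAMTS enzymes, and the receptor Lrp1 takes several of them up from the matrix.

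The zinc site shows the kinship of the 8 enzymes and the split between them. The 33 coding bases around it are printed for all 8, grouped by role, from mouse GENCODE transcripts on GRCm38. Capitals mark the codons of the 3 zinc-binding histidines and of the catalytic glutamate.
Adamts1: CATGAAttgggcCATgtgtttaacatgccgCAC
Adamts4: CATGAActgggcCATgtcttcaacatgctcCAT
Adamts15: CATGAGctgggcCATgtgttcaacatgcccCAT
Adamts5: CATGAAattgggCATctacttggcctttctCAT
Adamts2: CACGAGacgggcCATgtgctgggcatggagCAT
Adamts14: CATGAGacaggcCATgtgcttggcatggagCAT
Adamts12: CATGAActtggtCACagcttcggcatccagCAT
Adam12: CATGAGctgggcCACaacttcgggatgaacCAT
The eighth codon of the stretch was aac (asparagine) in Adamts1, Adamts4 and Adamts15, and ggc or ggg (glycine) in the other 5. The 2 procollagen N-proteinases, Adamts2 and Adamts14, were identical at 30 of the 33 bases, as were Adamts4 and Adamts15, whereas Adamts5 and Adam12 shared 17. The coding sequences used ranged from 845 codons for Adamts4 to 1600 for Adamts12.

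A TPM is a transcript's share of its library corrected for length, so levels can be set side by side between genes within a table. Depth could not be read from TPM, and nothing in the labels says whether libraries of a group came from separate cultures, so p-values for the cultures measure the spread between these libraries. In the cultures the 6 fibroblast markers summed to between 7066 and 28830 TPM per library, most of it Col1a2, a chain of the collagen I that activated fibroblasts deposit. Those of leukocytes reached at most 9.62 TPM, of endothelium 3.05 TPM and of epithelium 6.98 TPM. One library stood apart: the first of BCAA-free medium with TGF-β1 had a fibroblast marker sum of 28830 TPM against 7066 and 9326 TPM in the others of its group, and results on the 8 genes and their lists that rest on that group are also given without it where a call differed. In the diet experiment the whole PBS group stood apart, with endothelial markers at 104 to 186 TPM against 1025 to 1962 TPM in the PBS groups of the other experiments, and leukocyte markers at 1196 to 1819 TPM against 8067 to 11280 TPM. The extraction text in the labels names heart tissue, whereas all 30 tissue libraries are labelled lung and held epithelial markers at 22530 to 285900 TPM. Cardiac muscle markers summed to 504 to 1502 TPM in the PBS lungs of the diet and BT2 experiments. They summed to 40.2 to 89.5 TPM in the bleomycin groups without intervention there, to 124.8 to 355.8 TPM on the BCAA-free diet and to 167.5 to 233.8 TPM with BT2, and their part in the results was not tested. Each experiment has its own batch label, and no comparison crosses batches.

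In cells under PBS in complete medium, 4 of the 8 genes, Adamts2, Adamts15, Adamts5 and Adamts1, were far more abundant than the rest. Adamts2 stood at 1440 ± 36.7 TPM (SD, n = 3), Adamts15 at 1069 ± 18.1 TPM, Adamts5 at 684.5 ± 30.2 TPM and Adamts1 at 639.8 ± 20.6 TPM. The remaining genes were lower by a wide margin, from Adam12 at 92.3 ± 8.46 TPM through Adamts4 at 61.4 ± 4.99 TPM and Adamts12 at 41.5 ± 3.16 TPM to Adamts14 at 14.7 ± 1.80 TPM. Together the 8 transcripts made up 3954 to 4102 TPM per library under these conditions, 1906 to 2613 TPM after TGF-β1 in complete medium, and 739 to 796 TPM after TGF-β1 in BCAA-free medium.

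**Figure D1:**
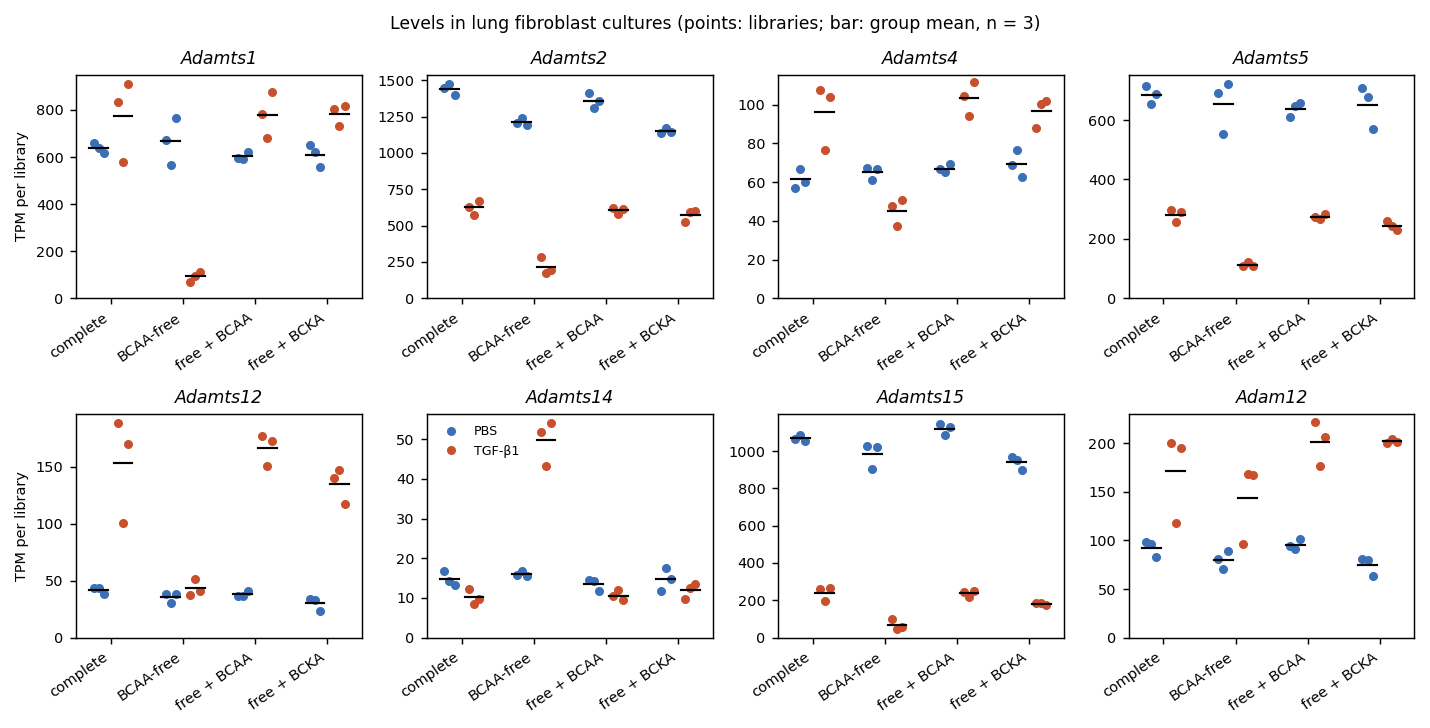
TPM of each of the 8 genes in the 24 fibroblast libraries, by medium (horizontal axis) and by PBS or TGF-β1 (colours), with points for libraries and bars for means of 3. TGF-β1 without BCAA gave the lowest Adamts1 values (70.5 to 113 TPM) and the highest Adamts14 values (43.3 to 54.1 TPM) of the 8 groups.

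TGF-β1 is the standard inducer of fibroblast activation, and the first comparison asks what it did to the proteases in complete medium. It split them: Adamts12, Adam12 and Adamts4 rose, while Adamts15, Adamts5, Adamts2 and, in a call that did not hold after centring, Adamts14 fell. So 7 of the 8 passed the test (limma on log2(TPM + 1), two-sided, Benjamini-Hochberg adjusted p under 0.05 over 13084 genes), where 48.6% of all genes did, 12.2% higher and 36.4% lower. With so large a share of all genes passing, the count is no result about the 8, and the sizes are given gene by gene.

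Among the proteoglycanases, Adamts15 had 1067, 1088 and 1052 TPM under PBS and 262, 196 and 266 TPM under TGF-β1. The groups lay far apart, and Adamts15 fell by 2.16 on the log2 scale (SE 0.17, adjusted p = 4.08e-10). Adamts5, the major aggrecanase of mouse cartilage, had 713, 653 and 688 TPM under PBS and 296, 256 and 290 TPM under TGF-β1, a log2 change of -1.29 (SE 0.10, adjusted p = 7.2e-10). Adamts4, its closest partner in aggrecan cleavage, went the other way. It had 57.1, 66.9 and 60.1 TPM under PBS and 108, 76.5 and 104 TPM under TGF-β1, a rise of 0.62 (SE 0.13, adjusted p = 0.000312). Adamts1 had 660.3, 640.0 and 619 TPM under PBS and 832, 577 and 909 TPM under TGF-β1, so the second TGF-β1 library lay below all PBS libraries and the groups overlapped. Its change of 0.25 (SE 0.16) did not pass (adjusted p = 0.208). Without that library it was 0.44 with an adjusted p of 0.0216.

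Of the procollagen N-proteinases, Adamts2 had 1446, 1474 and 1401 TPM under PBS and 631, 574 and 671 TPM under TGF-β1, a log2 change of -1.21 (SE 0.12, adjusted p = 2.77e-08). Adamts14 had 16.7, 14.2 and 13.2 TPM under PBS and 12.4, 8.39 and 9.61 TPM under TGF-β1. The groups did not overlap and the change of -0.50 (SE 0.16) passed with an adjusted p of 0.0109, but it was 0.0625 without the first PBS library and 0.0669 without the second TGF-β1 library. The third enzyme of this class, Adamts3, stood at 10.5 ± 2.89 TPM under TGF-β1 against 90.9 ± 4.72 TPM under PBS (log2 change -3.02, adjusted p = 9.06e-13). All 3 procollagen N-proteinases were thus lower in the libraries in which Col1a1, their collagen I substrate chain, was at 23480 ± 1572 TPM against 4658 ± 273 TPM.

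The largest rise was that of Adamts12, with 43.4, 43.3 and 37.9 TPM under PBS and 188, 101 and 170 TPM under TGF-β1. The lowest treated library lay well above the highest control, and the change was 1.81 (SE 0.18, adjusted p = 2.83e-08). Adam12 had 98.4, 95.9 and 82.6 TPM under PBS and 200, 119 and 195 TPM under TGF-β1, a rise of 0.85 (SE 0.19, adjusted p = 0.000735). In both genes the second TGF-β1 library was the lowest of its group. TPM being shares, each library was also centred on its median log2 ratio, which moved the median of all genes up by 0.19 here. On that scale Adamts1 was higher by 0.44 (adjusted p = 0.0171), Adamts14 no longer passed (-0.31, adjusted p = 0.133), and the other 6 kept their calls.

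The response was measured again in the 2 media to which BCAA or BCKA had been added, with PBS controls of their own. In the medium with BCAA added, 6 of the 8 passed, 3 in each direction, against 44.8% of all genes (11.5% higher, 33.2% lower), and in that with BCKA added 6 passed, 3 in each direction, against 45.8% (11.5% higher, 34.3% lower). Adamts12 rose by 2.11 and 2.14 in the 2 media, Adam12 by 1.06 and 1.43, and Adamts4 by 0.62 and 0.48. In the same order, the log2 change of Adamts15 was -2.24 and -2.37, that of Adamts5 -1.21 and -1.41, and that of Adamts2 -1.17 and -1.01. Adamts1 and Adamts14 did not pass in either. Adamts1 had changes of 0.36 in each (adjusted p = 0.0671 and 0.0649), which passed after centring (0.54 and 0.56, adjusted p = 0.00455 and 0.00333), a step that moved the median of all genes by 0.18 and 0.20.

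Withdrawal of BCAA alone was the next comparison. Under PBS none of the 8 genes passed against complete medium, where 0.91% of all genes did (0.573% higher, 0.336% lower), and by limma none had an unadjusted p under 0.05. The nearest was Adamts2, with 1205, 1243 and 1191 TPM without BCAA against 1446, 1474 and 1401 TPM with them. These libraries did not overlap, the log2 change was -0.25 (95% interval -0.50 to 0.00124) and the adjusted p was 0.669. The intervals of the other 7 lay within -0.59 and 0.45.

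Under TGF-β1 the same withdrawal went with large differences in 7 of the 8 genes. Adamts1, Adamts15, Adamts12, Adamts2, Adamts5 and Adamts4 were lower without BCAA, and Adamts14 was higher, where 60.3% of all genes passed, 35.5% higher and 24.8% lower. The median change of the 8 was -1.43 against 0.10 for all genes tested. These libraries are bulk RNA, in which fewer cells of a type and less RNA per cell cannot be told apart. The fibroblast marker Col1a2 stood at 13970 ± 12080 TPM without BCAA and 16280 ± 795.3 TPM in complete medium. The other 5 fibroblast markers summed to 967.3 to 1230 TPM without BCAA and 1351 to 1869 TPM in complete medium, lower in every library, against 3305 to 3390 TPM in complete medium under PBS. Of the 6, Pdgfra, Dcn, Lum and Fbln1 passed as lower without BCAA and none as higher. When the first BCAA-free library was left out, Col1a2 passed as lower and Dcn no longer passed. TGF-β1 in complete medium had 4 of the 6 lower and Col1a2 higher. The part of these markers in the results was not tested.

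Adamts1, which cleaves versican and is also induced by inflammation, had the largest change. It stood at 70.5, 95.3 and 113 TPM without BCAA under TGF-β1, against 832, 577 and 909 TPM in complete medium. The groups lay far apart, and the change was -3.04 (SE 0.16, adjusted p = 3.79e-13), or -2.86 without the first BCAA-free library. Its level in the other 7 culture groups ran from 558 to 909 TPM, and each neighbour in that order overlapped the next, so BCAA-free medium with TGF-β1 was the one group that lay apart from the rest.

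Adamts14 showed the opposite pattern. It had 51.8, 43.3 and 54.1 TPM without BCAA under TGF-β1 against 12.4, 8.39 and 9.61 TPM in complete medium. No other culture library exceeded 17.6 TPM. The change was 2.20 (SE 0.16, adjusted p = 7.93e-11), and 2.17 without the first BCAA-free library. Its closest relative, Adamts2, went down in the same libraries, with 283, 175 and 194 TPM against 631, 574 and 671 TPM (change -1.55, SE 0.12, adjusted p = 3.09e-10). The ratio of Adamts2 to Adamts14 transcripts was 3.59 to 5.47 without BCAA under TGF-β1, 51.1 to 69.8 in complete medium under TGF-β1, and 86.7 to 106 in complete medium under PBS. The ratio of Adamts1 to Adamts14 was 1.36 to 2.20, 67.4 to 94.5 and 39.6 to 46.95 in the same groups.

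The starts of these 2 oppositely moving genes are shown to set their sequences side by side. The 250 bases before the start of Adamts1 (chr16:85803114-85803363) and of Adamts14 (chr10:61273420-61273669), both on the minus strand, are from RefSeq on GRCm38.p6, 5′ to 3′. Capitals mark the motif matches named after them.
Adamts1: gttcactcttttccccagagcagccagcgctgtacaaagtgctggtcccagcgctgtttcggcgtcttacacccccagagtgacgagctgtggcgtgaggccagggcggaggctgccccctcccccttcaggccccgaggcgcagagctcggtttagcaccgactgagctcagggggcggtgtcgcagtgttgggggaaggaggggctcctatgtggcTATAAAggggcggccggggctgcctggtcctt
Adamts14: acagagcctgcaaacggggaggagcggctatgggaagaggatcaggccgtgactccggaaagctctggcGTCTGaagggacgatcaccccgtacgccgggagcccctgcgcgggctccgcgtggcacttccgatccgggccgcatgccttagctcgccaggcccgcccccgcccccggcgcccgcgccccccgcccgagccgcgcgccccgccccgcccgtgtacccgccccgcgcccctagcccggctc
In Adamts1 the capitals are a TATAAA box 32 bases before the start, a motif held by 12.4% of 32851 promoters of this length. In Adamts14 they are GTCTG, which is the SMAD element CAGAC on the other strand, 181 bases before the start, found in 42.2% of promoters. The windows also differ in composition, with a GC content of 65.6% and 15 CpG in Adamts1 against 76.4% and 35 CpG in Adamts14 (median of all promoters 52.4%). Searched on both strands, TGANTCA (AP-1, in 6.75% of promoters), CATTCC (TEAD, 12.6%) and TGATGNAA (the amino acid response element, 3.45%) were in neither window. None of the 5 motifs was in the windows of Adamts2 or Adamts12, which have a GC content of 78.0% and 63.2%. A match describes letters and not a bound site.

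The remaining proteases were also lower without BCAA under TGF-β1. Adamts12 had 37.6, 51.2 and 40.5 TPM against 188, 101 and 170 TPM (change -1.76, SE 0.18, adjusted p = 2.46e-08), a level that overlapped 3 of the 4 PBS groups and lay above the PBS group with BCKA. Adamts15 had 99.0, 47.7 and 58.4 TPM against 262, 196 and 266 TPM (change -1.86, adjusted p = 2.85e-09; -2.16 without the first BCAA-free library), and Adamts5 had 110, 121 and 107 TPM against 296, 256 and 290 TPM (change -1.30, adjusted p = 3.63e-10). Both were already lowered by TGF-β1 with BCAA and lay lower still without them. Adamts4 had 47.9, 37.1 and 50.9 TPM against 108, 76.5 and 104 TPM (change -1.06, adjusted p = 2.3e-07). Adam12 alone did not pass, with 96.3, 169 and 168 TPM against 200, 119 and 195 TPM, and groups that overlapped (change -0.25, SE 0.19, adjusted p = 0.251). Without the second library of complete medium Adam12 was lower by 0.50 (adjusted p = 0.0201), and without the first BCAA-free library its change was 0.01. Centring, which shifted the all-gene median by -0.11 in this comparison, left all 8 calls as they were. Without the first BCAA-free library the changes of Adamts2, Adamts12, Adamts5 and Adamts4 were -1.75, -1.67, -1.29 and -1.11, and all 4 still passed.

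A difference between the media in the response itself was tested as an interaction. It differed for 7 of the 8 genes, all but Adam12, and for 47.6% of all genes. The response of Adamts1 was 0.25 in complete and -2.85 in BCAA-free medium, a difference of -3.09 (SE 0.22, adjusted p = 2.74e-10). For Adamts14 the responses were -0.50 and 1.57, a difference of 2.07 (SE 0.22, adjusted p = 1.25e-07). The rise of Adamts12 (1.81) was 0.26 without BCAA, where it did not pass (adjusted p = 0.208), a difference of -1.55 (adjusted p = 3.75e-05). Adamts4 went from a rise of 0.62 to a fall, with a change of -0.52 without BCAA (adjusted p = 0.00102), and the difference was -1.15 (adjusted p = 1.84e-05). For the 3 genes that fell in both media the difference was -1.74 in Adamts15, -1.30 in Adamts2 and -1.23 in Adamts5 (adjusted p from 4.48e-07 to 2.98e-06). Adam12 rose in both media, by 0.85 and 0.80, with a difference of -0.05 (SE 0.26, adjusted p = 0.889). The same 7 genes passed without the first BCAA-free library and after centring, which shifted the all-gene median of this difference by -0.12. Within BCAA-free medium, TGF-β1 thus raised 2 of the 8 and lowered 5, against 29.2% and 34.9% of all genes (64.1% in either direction). These comparisons share libraries, and none counts as a repeat of another.

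**Figure D2:**
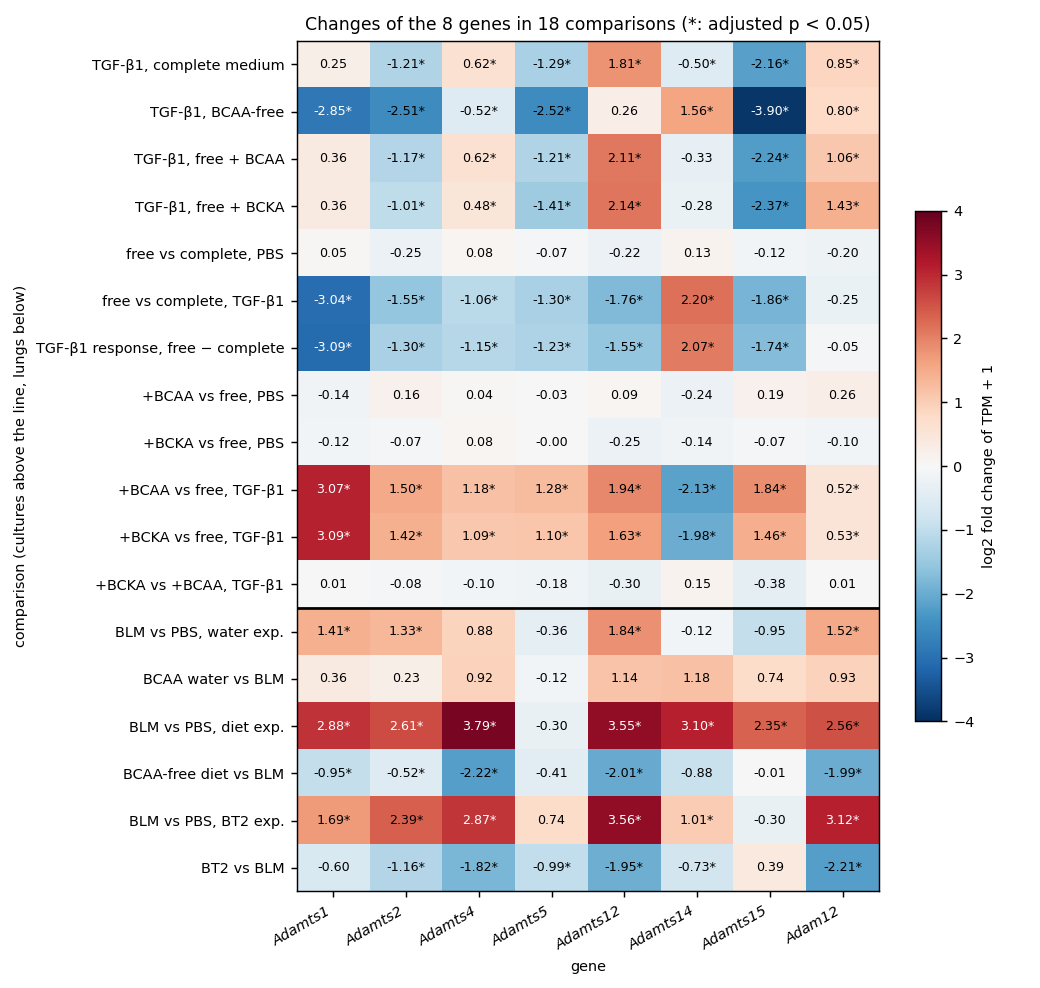
Log2 change of TPM + 1 for each gene (columns) in the 18 comparisons (cultures above the line, lungs below it), with colour for size and direction and an asterisk at an adjusted p under 0.05. BCAA-free medium with TGF-β1 against complete medium shows Adamts14 higher (2.20) and Adamts1 lower (-3.04).

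Adding BCAA or BCKA to BCAA-free medium was then compared with BCAA-free medium. Under PBS neither addition changed any of the 8 genes at the threshold, where 0.26% (BCAA) and 0.665% (BCKA) of all genes passed. No member had an unadjusted p under 0.05 in limma, and the lowest values were 0.144 and 0.186. Under TGF-β1 each addition moved all 8, 7 higher and Adamts14 lower, where 58.3% (BCAA) and 58.4% (BCKA) of all genes passed. Of all genes tested, 25% and 25.1% were higher and 33.3% and 33.4% lower. The median change of the 8 was 1.39 with BCAA and 1.26 with BCKA, against -0.07 for all genes in each.

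Adamts1 had 783, 681 and 876 TPM with BCAA added and 805, 731 and 818 TPM with BCKA added, against 70.5, 95.3 and 113 TPM without. It rose by 3.07 and 3.09 (adjusted p = 3.23e-13 and 3.37e-13). Adamts14 had 10.4, 11.9 and 9.53 TPM with BCAA and 9.64, 12.5 and 13.6 TPM with BCKA, against 51.8, 43.3 and 54.1 TPM, changes of -2.13 and -1.98. With either addition Adamts14 overlapped its level in complete medium with TGF-β1. Adamts12 had 177, 150.3 and 172 TPM with BCAA and 140, 148 and 118 TPM with BCKA, rises of 1.94 and 1.63. Adamts15 rose by 1.85 and 1.46, Adamts2 by 1.501 and 1.42, Adamts5 by 1.28 and 1.10, and Adamts4 by 1.18 and 1.09 (adjusted p at most 1.77e-07 for these genes). Adam12 rose least, by 0.52 and 0.53 (adjusted p = 0.0211 and 0.0194). Its call with BCAA was lost without the first BCAA-free library (0.26, adjusted p = 0.162), without library 1 or 3 with BCAA (adjusted p = 0.0824 and 0.0553), and in a fit of the compared groups alone (adjusted p = 0.116). Its call with BCKA was lost without the first BCAA-free library (0.26, adjusted p = 0.149) and in a fit of the compared groups alone (adjusted p = 0.0985). For the other 7 genes, leaving out the first BCAA-free library left both calls in place.

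The keto acids differ from the amino acids they derive from by an oxo group in place of the amino group, and the cell can interconvert them. Under TGF-β1 the media with BCKA and with BCAA were compared directly, at doses the labels do not give. No member passed (0.268% of all genes did, 0.222% higher and 0.0459% lower, with an adjusted p of 1 for all 8), and 1 of the 8 had an unadjusted p under 0.05 in limma. That was Adamts15, with 187, 185 and 173 TPM with BCKA and 242, 217 and 252 TPM with BCAA. Its libraries did not overlap, and the difference was -0.38 (95% interval -0.73 to -0.04, unadjusted p = 0.0304). In a fit of these 2 groups alone it passed (-0.38, adjusted p = 0.00988). Adamts12 differed by -0.31 (interval -0.68 to 0.07) and Adamts5 by -0.18 (interval -0.39 to 0.03), and their libraries did not overlap either. The shares of all genes without overlap, or under the unadjusted threshold, were not computed. The difference of Adamts1 was 0.01 (interval -0.31 to 0.34), that of Adam12 0.01 (-0.38 to 0.40) and that of Adamts14 0.15 (-0.18 to 0.47). Adamts2 differed by -0.08 (-0.33 to 0.17) and Adamts4 by -0.10 (-0.36 to 0.17). Intervals of this width do not show that the 2 additions act alike.

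The order of levels over the 8 culture groups set the genes apart. Adamts5 and Adamts15 were higher in all 4 PBS groups than in any TGF-β1 group, as was Adamts2, and each was lowest without BCAA under TGF-β1. Adamts4 and Adamts12 were highest in the 3 TGF-β1 groups that had BCAA or BCKA. Neighbours in the order of those 3 groups overlapped in both genes. For Adam12 every neighbour in the order overlapped the next. Over the 8 group means of log2(TPM + 1), the Pearson correlation was 0.996 between Adamts5 and Adamts15, 0.989 between Adamts2 and Adamts5, 0.923 between Adamts12 and Adam12, and -0.975 between Adamts1 and Adamts14. Among 10968 genes the one most like Adamts1 was Parp16 (0.999), followed by Thy1 (0.998) and Apcdd1 (0.997). The gene most like Adamts12 was Col5a1, a chain of collagen V (0.994), that most like Adamts5 was Efemp1 (0.999), that most like Adamts2 was Pon3 (0.9996), and that most like Adamts15 was Selenop (0.999). Adamts14 was most like Pgam5 (0.996), Adamts4 most like Lrrc8e (0.994) and Adam12 most like Fmn1 (0.987). These correlations describe 8 points from 1 experiment that share libraries. Without the first BCAA-free library under TGF-β1, that of Adamts12 was 0.931 with Col5a1 and 0.875 with Adam12, and that of Adamts2 with Pon3 was 0.984.

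The relatives, substrates and inhibitors of the 8 were followed through lists. Their counts stand beside all genes tested, of which TGF-β1 in complete medium had 12.2% higher and 36.4% lower, and BCAA-free medium under TGF-β1 35.5% higher and 24.8% lower. Of 12 other ADAMTS proteases 8 could be tested. TGF-β1 in complete medium raised 1 of them and lowered 6, and under TGF-β1 BCAA-free medium had 2 higher and 4 lower, Adamts3 among them (2.67 ± 0.24 TPM against 10.5 ± 2.89 TPM, change -1.62, adjusted p = 1.77e-08). Of the ADAMTS-like proteins, which lack the protease domain, 6 could be tested. TGF-β1 in complete medium raised 1, Adamtsl2 (63.5 ± 2.19 TPM against 7.50 ± 1.66 TPM, change 2.94), and lowered 4. Without BCAA 2 of the 6 were higher and 3 lower, Adamtsl4 by the most (7.47 ± 1.42 TPM against 54.9 ± 7.29 TPM, change -2.73). Of 7 other ADAM proteases tested, 1 was higher without BCAA, the shedding enzyme Adam17 (130 ± 15.7 TPM against 81.2 ± 8.95 TPM, change 0.67, adjusted p = 9.07e-06), and 3 were lower.

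Of 5 substrates tested, 1 was higher and 4 lower without BCAA under TGF-β1. The one higher was versican, Vcan, the proteoglycan that Adamts1, Adamts4, Adamts5 and Adamts15 cleave. It stood at 261 ± 111 TPM against 80.7 ± 20.1 TPM (change 1.61, adjusted p = 5.12e-06), in the libraries in which those 4 proteases were lower. Thrombospondin 1, Thbs1, was at 1630 ± 524 TPM against 15830 ± 3617 TPM (change -3.31). Of the 9 procollagens and their processing genes tested, 2 were higher and 5 lower, among them the enhancer of C-propeptide removal Pcolce (321 ± 59.5 TPM against 934 ± 82.4 TPM, change -1.55). All 11 tested inhibitors, clearance genes and Adam12 substrates passed, 4 higher and 7 lower. The inhibitor Timp3 was at 446 TPM against 179 TPM (change 1.24, adjusted p = 5.9e-06), and Igfbp3, a binding protein that Adam12 cleaves, at 868 ± 188 TPM against 55.0 ± 7.94 TPM (change 3.94, adjusted p = 1.13e-16). Another Adam12 substrate, Igfbp5, was at 2.37 TPM against 7.67 TPM (change -1.41, adjusted p = 2.73e-05). TGF-β1 in complete medium had already moved it from 309 ± 16.6 TPM under PBS (change -5.21, adjusted p = 6.14e-14). Adding BCAA moved Vcan to 94.4 TPM (change -1.35) and Igfbp3 to 44.6 ± 4.13 TPM (change -4.23). Without the first BCAA-free library under TGF-β1, an alternative added after the values were seen, 42.3% of all genes were higher and 23.6% lower. The other ADAM proteases then had 1 lower in place of 3, as Adam8 and Adam19 no longer passed. The procollagens and their processing genes had 7 lower in place of 5, with Col1a2 and Col3a1 added. Vcan then had a change of 2.03 and Timp3 of 1.56, and the counts of the other ADAMTS, the ADAMTS-like, the substrate and the inhibitor lists were the same.

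In the lung, the 8 genes were measured in whole tissue, where fibroblasts are a minority of cells. The same transcripts were far less abundant there. In the PBS lungs of the water experiment they summed to 82.6 to 112 TPM per library, of which Adamts1 and Adamts15 made up most. Adamts12, Adam12 and Adamts4 had group means of 0.193 to 2.09 TPM in the 3 PBS groups, so on the log2(TPM + 1) scale their changes understate the ratio of levels.

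**Figure D3:**
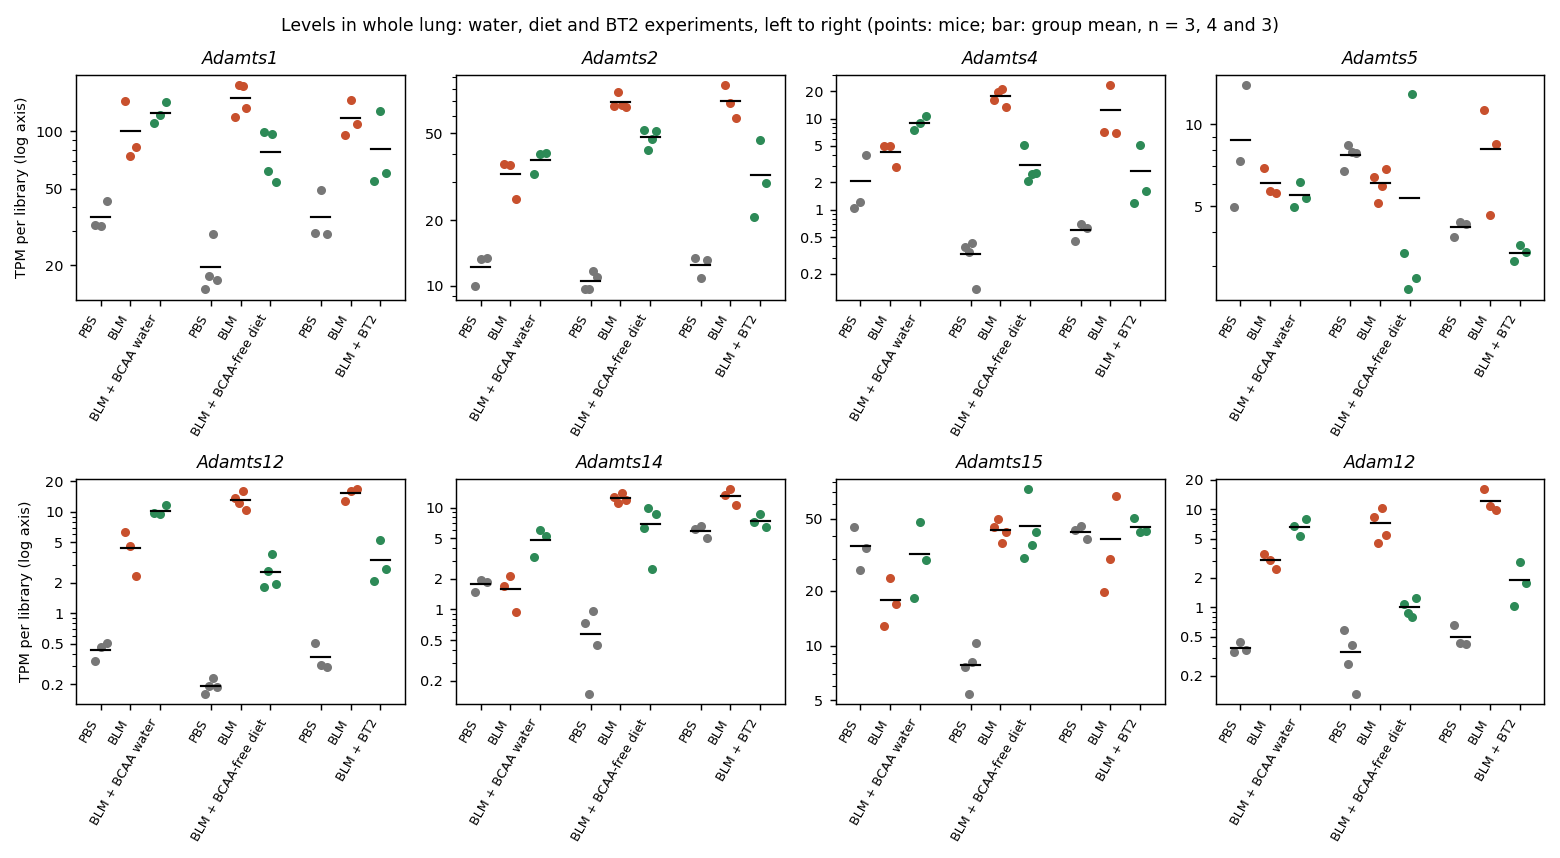
TPM of the 8 genes in the 30 lung libraries on a log axis, with the groups of the water, diet and BT2 experiments from left to right, points for mice and bars for means of 3, 4 and 3. Adamts12 and Adam12 lay higher after bleomycin than after PBS in every experiment, and the BCAA-free diet and BT2 groups lay below their bleomycin groups.

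In the water experiment bleomycin raised 4 of the 8 genes, Adam12, Adamts2, Adamts12 and Adamts1, and lowered none, where 21.9% of all genes passed, 14.8% higher and 7.08% lower. Adam12 had 0.351, 0.443 and 0.365 TPM after PBS and 3.52, 3.01 and 2.48 TPM after bleomycin (change 1.52, SE 0.20, adjusted p = 0.000514). Adamts12 had 0.339, 0.467 and 0.51 TPM after PBS and 6.29, 4.61 and 2.31 TPM after bleomycin (change 1.84, SE 0.26, adjusted p = 0.000867). In both genes every bleomycin lung lay above every control. Adamts2, which rose by 1.33 (adjusted p = 0.000703), went from 9.97, 13.2 and 13.4 TPM to 36.3, 35.8 and 25.1 TPM. Adamts1 went from 32.3, 31.9 and 43.3 TPM to 144, 74.0 and 82.5 TPM, a rise of 1.41 (adjusted p = 0.00202). Adamts1 and Adamts2 were the most abundant of the 8 after bleomycin in this experiment. Adamts15 had 44.8, 26.2 and 34.6 TPM after PBS and 12.9, 23.6 and 16.9 TPM after bleomycin. Its groups did not overlap, and the change of -0.95 did not pass (adjusted p = 0.0619). It passed without the second bleomycin lung (adjusted p = 0.0398), with genes filtered at a TPM of 5 (0.0447), in a fit of the compared groups alone (0.0276) and with array weights (0.0182). Adamts4 (change 0.88, adjusted p = 0.0777) overlapped through the third control, at 4.01 TPM against 1.04 and 1.23 TPM in the others, and passed without it (1.29, adjusted p = 0.00779). Adamts5 (-0.36) and Adamts14 (-0.12) did not pass. Fibroblast markers summed to 200 to 332 TPM after PBS and 426 to 585 TPM after bleomycin. In the same order, epithelial sums were 175700 to 285900 TPM and 84920 to 158800 TPM, and leukocyte sums 8067 to 11280 TPM and 12100 to 17620 TPM. Cardiac sums were 88.3 to 212.2 TPM and 53.1 to 86.0 TPM. None of these sums overlapped, and their part in these results was not tested.

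BCAA in the drinking water was compared with normal water in bleomycin-treated mice. No member passed (1.2% of all genes did, 0.872% higher and 0.331% lower), while 5 of the 8 had an unadjusted p under 0.05 in limma. The share of all genes under that unadjusted threshold was not computed, so the 5 are no result about the set. Adamts14 had 3.29, 5.99 and 5.29 TPM with BCAA and 1.69, 2.15 and 0.934 TPM without (change 1.18, SE 0.25, adjusted p = 0.0521). Adam12 had 6.71, 5.31 and 7.94 TPM against 3.52, 3.01 and 2.48 TPM (change 0.93, SE 0.20, adjusted p = 0.0546), and Adamts12 had 9.82, 9.59 and 11.6 TPM against 6.29, 4.61 and 2.31 TPM (change 1.14, SE 0.26, adjusted p = 0.0659). All 3 had no overlap between groups, as had Adamts4, with 7.45, 8.91 and 10.6 TPM against 5.03, 4.98 and 2.96 TPM (change 0.92, adjusted p = 0.192). How many of all genes had no overlap was not counted. Adamts12 passed without the first normal-water library (adjusted p = 0.0469), and Adamts14 without the second (adjusted p = 0.0342). For the other 4 genes the changes ran from -0.12 in Adamts5 to 0.74 in Adamts15. In these mice fibroblast marker sums were 807 to 999.5 TPM with BCAA and 426 to 585 TPM without, and epithelial sums 52820 to 74600 TPM and 84920 to 158800 TPM. In the same order, mesothelial sums were 433.0 to 702.4 TPM and 265.5 to 409.2 TPM, and endothelial sums 979.3 to 1109 TPM and 1116 to 1530 TPM. None of these sums overlapped, and their part in the values was not tested.

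In the diet experiment bleomycin raised 7 of the 8 genes, all but Adamts5, where 60.9% of all genes passed, 48.7% higher and 12.3% lower. The PBS group is the one that stood apart, so the sizes rest on 4 control libraries with few endothelial and leukocyte transcripts. That pattern and the absence of bleomycin cannot be told apart here. Fibroblast markers summed to 141 to 203 TPM after PBS and 1013 to 1167 TPM after bleomycin. In the same order, epithelial sums were 121900 to 282100 TPM and 46600 to 56980 TPM, and mesothelial sums 25.98 to 102.1 TPM and 240.5 to 495.0 TPM. Endothelial and leukocyte sums rose to 1366 to 1974 TPM and 7756 to 11120 TPM after bleomycin, and cardiac sums were lower. None of these sums overlapped, and their part was not tested. Adamts4 had 0.387, 0.345, 0.434 and 0.134 TPM after PBS and 16.1, 19.3, 21.1 and 13.3 TPM after bleomycin (change 3.79, adjusted p = 4.5e-08). Adamts12 had 0.161, 0.193, 0.232 and 0.186 TPM against 13.6, 12.2, 16.0 and 10.6 TPM (change 3.55, adjusted p = 2.63e-08), and Adamts14 had 0.736, 0.149, 0.976 and 0.444 TPM against 12.6, 11.0, 13.9 and 11.8 TPM (change 3.10, adjusted p = 2.83e-06). No lung of one group reached the other in any of these 3 genes. Adamts1 rose by 2.88, Adamts2 by 2.61, Adam12 by 2.56 and Adamts15 by 2.35 (adjusted p at most 4.49e-06). Adamts15 had 7.6, 5.43, 8.10 and 10.3 TPM after PBS and 45.0, 49.8, 37.0 and 42.4 TPM after bleomycin, so here it rose. The difference from the water experiment was not tested. Adamts5 stood at 7.70 ± 0.69 TPM and 6.07 ± 0.74 TPM (SD, n = 4; change -0.30, adjusted p = 0.473). Centring shifted the all-gene median by -0.56 and left all 7 calls in place, with Adamts15 at 1.79 and Adamts4 at 3.22.

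In each experiment the bleomycin lungs serve both comparisons, so the effects of bleomycin and of the intervention are not independent. The BCAA-free diet lowered 5 of the 8 genes in bleomycin-treated mice, Adamts4, Adamts12, Adam12, Adamts1 and Adamts2, where 10.1% of all genes passed, 4.02% higher and 6.12% lower. Adamts12 had 1.81, 2.6, 3.84 and 1.93 TPM on the BCAA-free diet and 13.6, 12.2, 16.0 and 10.6 TPM on the normal diet (change -2.01, SE 0.19, adjusted p = 0.000123). Adamts4 had 5.14, 2.09, 2.48 and 2.56 TPM against 16.1, 19.3, 21.1 and 13.3 TPM (change -2.22, SE 0.22, adjusted p = 0.000155). Adam12 had 1.09, 0.877, 0.792 and 1.24 TPM against 8.39, 4.56, 10.3 and 5.53 TPM (change -1.99, SE 0.23, adjusted p = 0.000342). In these 3 genes the highest lung on the BCAA-free diet lay well below the lowest on the normal diet. Adamts2 changed less, at 51.8, 41.7, 47.0 and 51.4 TPM against 66.8, 76.9, 67.2 and 66.0 TPM (change -0.52, adjusted p = 0.015). Adamts1 had 98.4, 62.1, 96.2 and 54.5 TPM against 118, 174, 171 and 131 TPM (change -0.95, adjusted p = 0.0276). Its call was lost without normal-diet lung 2 or 3 (adjusted p = 0.0735 and 0.0882), without BCAA-free lung 2 or 4 (0.064 and 0.0792), and with no filter (0.0576).

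Adamts14 did not pass with the diet although its groups did not overlap, at 6.28, 9.85, 2.50 and 8.68 TPM against 12.6, 11.0, 13.9 and 11.8 TPM (change -0.88, adjusted p = 0.0931). Adamts15, at 45.4 ± 18.9 TPM against 43.6 ± 5.34 TPM, had a change of -0.01 (adjusted p = 0.984), and 0.12 after centring, which moved the median of all genes by 0.13. For Adamts5 a single lung decided the value. It had 3.36, 2.47, 12.9 and 2.73 TPM on the BCAA-free diet against 6.37, 5.12, 5.92 and 6.86 TPM, a change of -0.41 (adjusted p = 0.503), and without the third BCAA-free lung it passed (-0.88, adjusted p = 0.00152). The diet went with fibroblast marker sums of 499.8 to 931 TPM against 1013 to 1167 TPM on the normal diet, and leukocyte sums of 13900 to 19260 TPM against 7756 to 11120 TPM. Epithelial sums were 61500 to 119100 TPM against 46600 to 56980 TPM, mesothelial sums 73.1 to 183 TPM against 240.5 to 495.0 TPM, and cardiac sums 124.8 to 355.8 TPM against 40.2 to 89.5 TPM. None of these 5 sums overlapped, and their part in these results was not tested.

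In the BT2 experiment, at the higher bleomycin dose, bleomycin raised 6 of the 8 genes, where 30.6% of all genes passed, 17.3% higher and 13.3% lower. Adam12 had 0.651, 0.430 and 0.426 TPM after PBS and 16.1, 10.8 and 9.94 TPM after bleomycin (change 3.12, adjusted p = 0.000142). Adamts12 had 0.510, 0.305 and 0.293 TPM against 12.8, 16.1 and 16.8 TPM (change 3.56, adjusted p = 7.66e-05). In both genes the lowest bleomycin lung lay far above the highest control. Adamts4 rose by 2.87, Adamts2 by 2.39, Adamts1 by 1.69 and Adamts14 by 1.01 (adjusted p at most 0.0056). Adamts5 had 3.86, 4.38 and 4.31 TPM after PBS and 11.2, 4.62 and 8.48 TPM after bleomycin, with no overlap (change 0.74, adjusted p = 0.0661), and passed without the second bleomycin lung (adjusted p = 0.00416). Adamts15 overlapped, at 43.3, 45.4 and 38.5 TPM against 19.6, 29.9 and 67.0 TPM (change -0.30, adjusted p = 0.547), and was lower without the third bleomycin lung (-0.78, adjusted p = 0.0216). Fibroblast marker sums were 272 to 289 TPM after PBS and 974 to 1289 TPM after bleomycin. In the same order, epithelial sums were 163400 to 194400 TPM and 22530 to 32930 TPM, and leukocyte sums 8362 to 9899 TPM and 11020 to 16080 TPM. Mesothelial sums were 20.9 to 74.7 TPM and 152 to 223.5 TPM, and cardiac sums were lower after bleomycin. None of these sums overlapped, and their part was not tested.

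BT2 was compared with its DMSO vehicle in bleomycin-treated mice. It lowered 6 of the 8 genes, Adam12, Adamts12, Adamts2, Adamts4, Adamts5 and Adamts14, and raised none, where 11.8% of all genes passed, 6.34% higher and 5.41% lower. In all 6 the BT2 and vehicle lungs did not overlap, though the share of all genes without overlap was not computed. Adam12 had 1.03, 2.92 and 1.76 TPM with BT2 and 16.1, 10.8 and 9.94 TPM with vehicle (change -2.21, SE 0.29, adjusted p = 0.00573), and Adamts12 had 2.07, 5.34 and 2.71 TPM against 12.8, 16.1 and 16.8 TPM (change -1.95, SE 0.28, adjusted p = 0.00858). Of these 2, Adam12 passed in every alternative and Adamts12 lost its call without the third BT2 lung (adjusted p = 0.0503). The other 4 calls were less firm. All 4 were lost with no filter (adjusted p from 0.0621 to 0.0997). They were also lost in a fit of the compared groups alone (adjusted p from 0.0813 to 0.125). Adamts2 had 20.6, 46.6 and 29.7 TPM against 83.3, 68.7 and 58.7 TPM (change -1.16, adjusted p = 0.0282), and lost its call without the first vehicle lung or without BT2 lung 1 or 3 (adjusted p = 0.0759, 0.0833 and 0.106). Adamts4 had 1.199, 5.12 and 1.63 TPM against 7.04, 23.4 and 6.94 TPM (change -1.82, adjusted p = 0.0424), and lost its call without the same 3 lungs (adjusted p = 0.0608, 0.13 and 0.144) and with a pseudocount of 0.1 (0.0503).

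Adamts5 had 3.14, 3.60 and 3.39 TPM with BT2 against 11.2, 4.62 and 8.48 TPM (change -0.99, adjusted p = 0.0466), and lost its call without 5 of the 6 lungs, all but the second vehicle lung (adjusted p from 0.0805 to 0.14). Adamts14, the gene with the smallest change of the 6, had 7.23, 8.59 and 6.48 TPM against 13.4, 15.2 and 10.6 TPM (change -0.73, adjusted p = 0.0466), and lost its call without 5 of the 6, all but the third vehicle lung (adjusted p from 0.0533 to 0.167). With a pseudocount of 0.1 the adjusted p of Adamts14 was 0.0504. Of the 8 genes, 2 passed without the first vehicle lung, 2 without the first BT2 lung and 1 without the third BT2 lung. The share of all genes passing in those fits is not given here. Adamts1, at 54.9, 127 and 60.4 TPM against 95.2, 145 and 108 TPM, overlapped and did not pass (change -0.60, adjusted p = 0.233). Adamts15, at 50.7, 42.5 and 42.6 TPM against 19.6, 29.9 and 67.0 TPM, did not pass (0.39, adjusted p = 0.462) and was higher without the third vehicle lung (0.87, adjusted p = 0.0263). The second BT2 lung was the highest of its group in 7 of the 8 genes. Fibroblast marker sums were 366 to 762 TPM with BT2 and 974 to 1289 TPM with vehicle, and epithelial sums 93160 to 168900 TPM and 22530 to 32930 TPM. Leukocyte sums were 19110 to 20630 TPM with BT2 and 11020 to 16080 TPM with vehicle, mesothelial sums 77.1 to 91.1 TPM and 152 to 223.5 TPM, and cardiac sums 167.5 to 233.8 TPM and 74.9 to 79.3 TPM. None of these 5 sums overlapped, and their part in these results was not tested. Centring shifted the all-gene median by -0.11 here and left the same 6 calls.

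Each gene was also set against fibroblast markers in the lung. The levels of 5 of them (Pdgfra, Pdgfrb, Dcn, Lum and Fbln1), chosen after the values were seen and leaving out Col1a2, were summed per lung. Each gene was computed per 1000 TPM of that sum, as a description without a test. Adamts12, Adam12, Adamts1 and Adamts15 are plotted, and no rule was set for that choice. In cultures in complete medium this sum was 3305 to 3390 TPM under PBS and 1351 to 1869 TPM under TGF-β1. The sum itself thus moves with treatment, and the ratio is not a level per fibroblast. Unlike the sums of all 6, those of the 5 overlapped between intervention and bleomycin groups in 2 experiments, at 302.9 to 446.5 TPM on the BCAA-free diet against 387 to 439.6 TPM, and at 224.3 to 330.5 TPM with BT2 against 276.7 to 376.4 TPM. In the water experiment they were 344.9 to 388.3 TPM with BCAA against 247.9 to 289.8 TPM. After PBS they were 162.5 to 277 TPM in the water, 96.96 to 137.5 TPM in the diet and 211.2 to 239.1 TPM in the BT2 experiment. Adamts12 had 1.28 to 2.41 in the PBS lungs of the BT2 experiment, 43.3 to 46.2 after bleomycin and 9.24 to 16.2 with BT2. In the diet experiment it had 1.48 to 1.91 after PBS, 24.0 to 37.4 after bleomycin and 5.10 to 8.59 on the BCAA-free diet. In the water experiment it had 1.84 to 2.29 after PBS, 9.34 to 22.0 after bleomycin and 27.0 to 29.9 with BCAA. In each experiment the 3 groups did not overlap.

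Adam12 showed the same separation from its bleomycin group per 1000 TPM of markers, at 1.77 to 3.52 on the BCAA-free diet against 11.8 to 24.1, at 4.61 to 8.85 with BT2 against 26.4 to 58.1, and at 14.9 to 20.4 with BCAA in water against 10.0 to 12.3. Adamts1 per 1000 TPM of markers had 255 to 503 after bleomycin and 320.0 to 363 with BCAA in the water experiment, and 288 to 392 after bleomycin and 236 to 385 with BT2, so those groups overlapped. In the diet experiment its groups did not, at 279.6 to 450.0 on the normal diet and 154.7 to 277.7 on the BCAA-free diet. Adamts15 per 1000 TPM of markers was 125 to 275 after PBS and 45.0 to 81.5 after bleomycin in the water experiment, and 53.8 to 81.9 and 86.5 to 129 in the diet experiment. In the BT2 experiment it was 171.8 to 204.9 after PBS and 70.94 to 178 after bleomycin, which overlapped. Adamts5 was lower after bleomycin than after PBS in the water experiment (19.6 to 24.2 against 30.5 to 50.3). The same held in the diet experiment (13.2 to 15.6 against 57.3 to 82.8) and not in the BT2 experiment, where groups overlapped. Adamts14 on the BCAA-free diet overlapped its bleomycin group (5.605 to 32.5 against 26.85 to 32.4). With BT2 it also did, and with BCAA in water it did not. Adamts2 and Adamts4 are not described here.

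**Figure D4:**
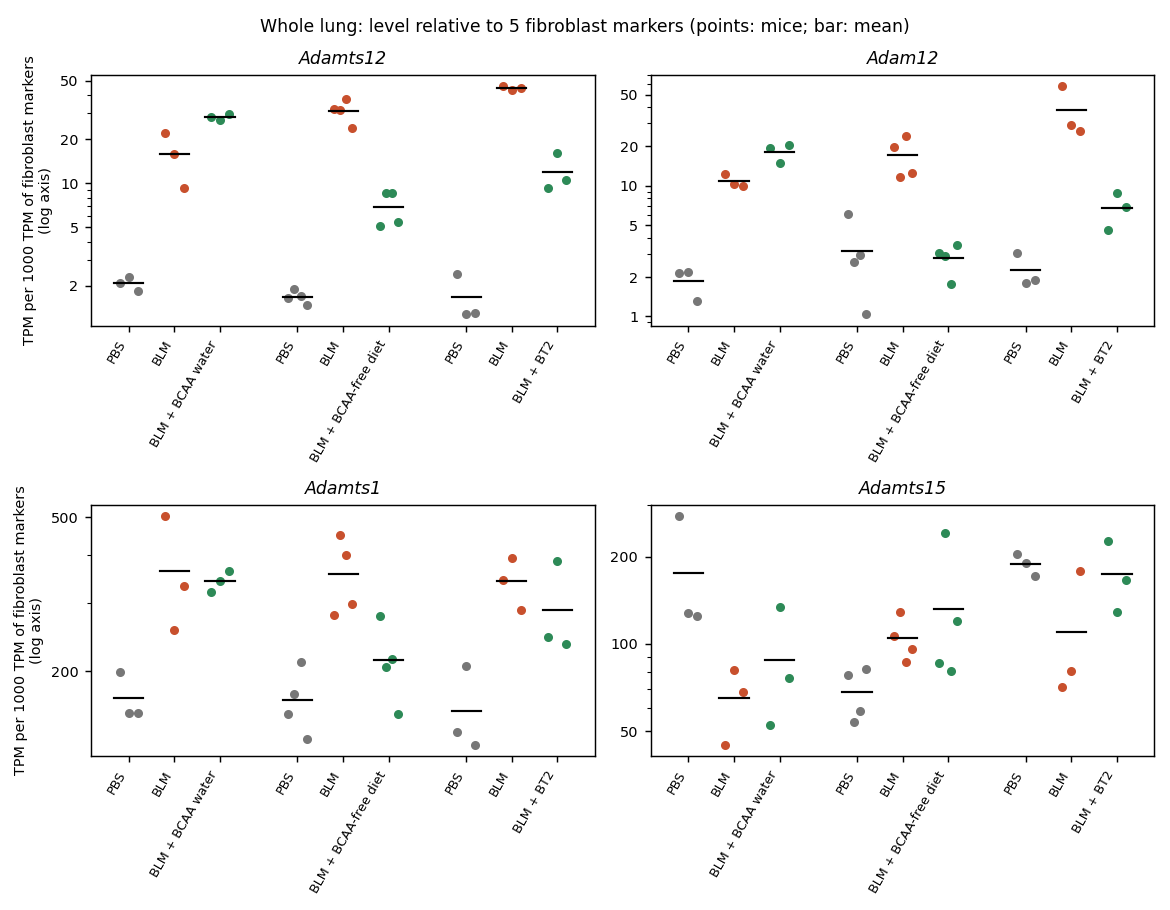
TPM of each plotted gene per 1000 TPM of 5 fibroblast markers in the 30 lung libraries (log axis), with points for mice and bars for group means. For Adamts12, the BT2 lungs (9.24 to 16.2) and the lungs on the BCAA-free diet (5.10 to 8.59) lie between their PBS and bleomycin groups.

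The lists were followed in the lung as well. Beside their counts, bleomycin had 14.8%, 48.7% and 17.3% of all genes higher in the water, diet and BT2 experiments, and 7.08%, 12.3% and 13.3% lower. The BCAA-free diet had 4.02% higher and 6.12% lower, BT2 6.34% and 5.41%, and BCAA in water 0.872% and 0.331%. Of 6 other ADAMTS proteases tested, bleomycin raised 1 in the water, 4 in the diet and 2 in the BT2 experiment, and lowered 1, Adamts10, in the last (51.5 ± 19.8 TPM against 119 ± 14.8 TPM, change -1.27, adjusted p = 0.00833). BT2 raised Adamts10 (116 ± 16.6 TPM, change 1.23, adjusted p = 0.0268), the 1 gene of that list to pass there. Adamts7, which like Adamts12 cleaves cartilage oligomeric matrix protein, rose after bleomycin in the diet experiment (7.96 ± 1.80 TPM against 0.396 ± 0.18 TPM, change 2.67) and was lower on the BCAA-free diet (2.14 ± 1.42 TPM, change -1.65, adjusted p = 0.0105). Of the ADAMTS-like proteins none of 6 passed with BT2, with the BCAA-free diet or with BCAA in water.

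Of 6 substrates tested, bleomycin raised 4, 5 and 4 in the water, diet and BT2 experiments. The BCAA-free diet lowered 3 and raised 1, Bcan, and BT2 lowered 4 and raised 1. Versican was at 3.86 TPM on the BCAA-free diet against 9.93 TPM (change -1.12, adjusted p = 0.00921) and at 3.16 TPM with BT2 against 12.98 TPM (change -1.80, adjusted p = 0.0172). In the lungs Vcan and Adamts4 were thus lower together, whereas in BCAA-free cultures under TGF-β1 Vcan was higher and Adamts4 lower. Of 9 procollagens and processing genes tested, bleomycin raised 6, 9 and 7. The BCAA-free diet lowered 5 and raised 1, Pcolce2 (112 ± 10.5 TPM against 27.2 ± 7.52 TPM), and BT2 lowered 5 and raised 1. BCAA in water raised 4 of the 9, the list in which most genes passed in that comparison, with Col1a1 at 932 ± 223 TPM against 364 ± 64.7 TPM (change 1.34, adjusted p = 0.0265) and Col5a1 at 122 ± 18.8 TPM against 50.2 ± 8.4 TPM (change 1.26, adjusted p = 0.0156).

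Of the inhibitors, clearance genes and Adam12 substrates, Timp1 had the largest changes in the lung. It was at 1546 TPM after bleomycin against 26.2 TPM in the BT2 experiment (change 5.76), and fell to 162 TPM with BT2 (change -3.36, adjusted p = 0.00553). In the diet experiment it was at 1386 ± 464 TPM after bleomycin against 51.0 ± 8.94 TPM (change 4.69), and at 151 TPM on the BCAA-free diet (change -3.18, adjusted p = 6.82e-05). Timp3, the inhibitor of the ADAMTS enzymes themselves, did not pass with the diet (196 TPM against 126 TPM, adjusted p = 0.182) or with BT2 (76.7 TPM against 85.3 TPM, adjusted p = 0.82). With BT2, 2 of 11 genes of this list were lower and none higher, and with the BCAA-free diet 2 were lower and 1 higher.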

How the data were processed

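Poly(A) RNA of 24 cultures and 30 lungs was sequenced. Per the labels, samples were grouped by title and treatment. The authors deposited 4 tables of TPM, which sum to 1000000 per library, so neither depth nor counting error is known. The submitters' processing notes name the build mm39 and the tools Trim Galore, FastQC, Subread, featureCounts, HISAT2 and DESeq2, and the annotation and versions are not given in the sources used here. Values listed under no symbol (at most 0.367% of TPM) were dropped, and repeated symbols were summed.

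Each table was fitted on log2(TPM + 1), a pseudocount of 1, with limma 3.58.1 (R 4.3.3; group means, mean-variance trend). Genes entered if 3 or more libraries reached 1 TPM, which left 13084 in cultures and 17209, 18593 and 18151 in the water, diet and BT2 experiments. P-values are two-sided and adjusted by Benjamini-Hochberg over all of these, with a threshold of 0.05, in 18 comparisons. The share of all genes whose groups did not overlap was not computed, so counts of such genes are no result about the 8. The 8 genes and the lists were chosen with earlier results of these data known. By rule the text names all 8 and, per list and comparison, up to 2 passing genes with the largest change, a mean TPM of at least 5 and no overlap between groups. It names some of those, and Timp3, Timp1, Vcan, Igfbp5 and Col1a1 were in part named after their values were seen. The procedure was tested on simulated data in which 200 genes were moved by 1 log2 unit. It recovered 92% of them for BCAA-free against complete medium under TGF-β1. In the lungs it recovered 51.5% for BCAA in water, 50% for the BCAA-free diet and 24.5% for BT2. False calls were 8%, 6.36%, 6.54% and 2% of all calls in the same order. In the simulation the noise was normal, no other gene was moved, and the 200 had a mean log2(TPM + 1) above 1. In the data 60.3%, 1.2%, 10.1% and 11.8% of genes passed in these comparisons. The adjustment thus acts differently there, and these rates need not hold for the data. Changes of 1 log2 unit can go uncalled in the lungs. Alternatives were a pseudocount of 0.1 or 0.5, dropping the filter or raising it to 5 TPM, median centring, fits of the compared groups alone, array weights, a replicate block, and each library left out.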

Additional observations from a re-analysis of the deposited data

Results flagged for a closer look

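Each of the 8 genes was searched in the 3 groups of 4 lungs for 1 lung far from the other 3 by Dixon's criterion. Chance meets it in about 1 of 20 such sets, so a flag can arise by chance alone. It was met by 3 genes, all in bleomycin groups of the diet experiment. Adamts2 reached 76.85 TPM in the second lung given bleomycin on the normal diet (65.96 to 67.22 TPM in the others). Adamts4 reached 5.142 TPM in the first lung on the BCAA-free diet (2.088 to 2.556 TPM in the others), and Adamts5 reached 12.93 TPM in the third (2.47 to 3.356 TPM in the others).

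The response to TGF-β1 differed between BCAA-free and complete medium in 7 genes by the interaction test. The differences (log2, BCAA-free minus complete) were -3.092 in Adamts1, -1.3 in Adamts2, -1.146 in Adamts4, -1.232 in Adamts5, -1.546 in Adamts12, 2.07 in Adamts14 and -1.74 in Adamts15.

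Adamts15 had a log2 change with bleomycin of -0.9511 in the water experiment, which did not pass (adjusted p = 0.0619), and of 2.35 in the diet experiment, which did. In the first every bleomycin lung lay below every PBS lung, and in the second above. The PBS group of the diet experiment is the one that stood apart in its cell type markers, and the difference between the experiments was not tested.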

How the results depend on the processing

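Of 144 effects (8 genes in 18 comparisons) 84 passed, and 75 of these passed under every alternative run. With TPM alone, depth is unknown, so low values such as Adam12 after PBS carry an unknown counting error. Counts of passing genes that moved were as follows. BCKA against BCAA under TGF-β1 had 1 in a fit of the compared groups and 3 with array weights, whose estimation stopped before convergence in the cultures. Array weights gave 2 for BCAA withdrawal under PBS and 2 for BCAA addition under PBS. BCAA in water had 2 with centring, 7 with array weights and 0 to 1 with single lungs left out. BT2 had 2 with no filter, 2 with the compared groups alone and 1 to 6 with single lungs left out. The share of all genes passing under each setting is not set beside these counts, so they are no result about the 8. The cause was not tested.

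Directions reversed for effects that did not pass. With array weights, BCKA against BCAA gave -0.0176 in Adamts1 and -0.0297 in Adam12, and Adamts15 gave 0.407 for bleomycin in the BT2 experiment and -0.301 for BT2. Centring gave 0.115 for Adamts15 with the BCAA-free diet. With single libraries left out, BCAA withdrawal under PBS ran from -0.0517 to 0.166 in Adamts1 and -0.148 to 0.046 in Adamts5. For Adam12 the interaction ran from -0.296 to 0.214 and BCAA withdrawal under TGF-β1 from -0.498 to 0.0122. BCAA addition under PBS ran from -0.000353 to 0.0653 in Adamts4, -0.147 to 0.0468 in Adamts5 and -0.0131 to 0.147 in Adamts12. BCKA addition under PBS ran from -0.122 to 0.0905 in Adamts5, -0.267 to 0.00508 in Adamts14 and -0.191 to 0.00889 in Adam12. BCKA against BCAA ran from -0.0797 to 0.102 in Adamts1 and -0.084 to 0.0813 in Adam12. Bleomycin in the water experiment ran from -0.661 to 0.00342 in Adamts5 and -0.277 to 0.0753 in Adamts14. For Adamts15 the BCAA-free diet ran from -0.261 to 0.149 and bleomycin in the BT2 experiment from -0.777 to 0.0832.

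Between the deviations of same-numbered libraries the median r was 0.0107 in cultures. It was -0.0508, -0.0083 and 0.0254 in the water, diet and BT2 experiments. In the cultures r ran from -0.486 to 0.535 over 84 such pairs, of which 29 were over 0.1. In the lungs it ran from -0.252 to 0.167, -0.0759 to 0.121 and -0.0745 to 0.19, in the same order. The numbers were not taken as pairs in the main fits, and whether same-numbered libraries belong together was not tested. With the replicate number as a block, Adamts1 passed for TGF-β1 with BCAA added (adjusted p = 0.0484) and with BCKA added (adjusted p = 0.0465), and Adamts5 no longer passed for BT2 (adjusted p = 0.0638), where 5 genes passed in all.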
